A study of Zea mays with 2 samples.

Results

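SWEET13-free bundle sheath (BS) barcodes of the maize leaf were examined in single-cell RNA sequencing of protoplasts, cells whose walls had been digested away. A barcode is the tag shared by the transcripts of 1 droplet, and a UMI is a molecular identifier that counts 1 captured transcript. The members were chosen by their own counts of 10 genes. Each had at least 10 UMIs of 4 BS genes (ME1, RBCS1, RBCS2 and PCK1), more of these than of 3 mesophyll (MS) genes (PEP1, CAH1 and MDH6), and 0 UMIs of SWEET13a, SWEET13b and SWEET13c. The rule gave 218 barcodes of 13444, 177 of 7340 in library 1 and 41 of 6104 in library 2. No quality filter was applied to the barcodes, which are those that Cell Ranger had called as cells.

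The 2 libraries were the samples used here, and both belonged to 1 group of untreated B73 plants, an inbred wild-type line. Each was made from 6 pooled plants at the V2 stage, from the distal 6 cm of leaf 2, and library 2 came from plants grown at another time. The members were set against MS barcodes (MS above BS, at least 10 MS UMIs; 6401 in library 1 and 5279 in library 2). They were also set against SWEET13-positive BS barcodes, which had at least 3 SWEET13 UMIs (88 and 29). Barcodes with 1 or 2 SWEET13 UMIs (29 and 14) were in neither class. Protoplasts lose their place in the leaf, so no barcode carried a position.

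Maize is a C4 plant of the NADP-malic enzyme type, in which carbon is first fixed in the mesophyll and then released and refixed around the veins. In the mesophyll, carbonic anhydrase (CAH1) and phosphoenolpyruvate carboxylase (PEP1) fix carbon into oxaloacetate, which NADP-malate dehydrogenase (MDH6) reduces to malate. In the BS, malic enzyme (ME1) and phosphoenolpyruvate carboxykinase (PCK1) release the carbon dioxide, and Rubisco, whose small chain is made by RBCS1 and RBCS2, fixes it in the Calvin cycle. SWEET13 proteins export sucrose from cells that load the phloem. The study placed SWEET13 transcripts in the BS cells on the lower (abaxial) side of the leaf. It also found them in the phloem parenchyma, a cell type inside the vein, partly or mainly so in the larger veins. As a gene of the other, adaxial BS cells it named cystatin 3 (CC3, an inhibitor of cysteine proteases). It also named a type 1 metallothionein (MT1b, a small cysteine-rich metal-binding protein) for these adaxial cells.

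By the genes that chose them, the members were BS barcodes. ME1 stood at 6937 CPM in the members of library 1 and 8956 CPM in those of library 2, against 16.5 and 8.60 CPM in MS barcodes, where CPM is the UMIs of a gene divided by all UMIs of the summed class and scaled to 1000000. RBCS1 stood at 24570 and 28333 CPM in members, against 112.9 and 123.8 CPM in MS barcodes. PCK1 had UMIs in 172 of 177 members of library 1 and in 40 of 41 of library 2. The MS gene PEP1 was at 447.2 and 347.2 CPM in members, which is 11.4% and 6.01% of its level in MS barcodes, and CAH1 was at 6.85% and 6.55% of its MS level. Since these genes define the classes, their values are a description and were not tested. Genes outside the rule that passed a low-count filter were tested, but in barcodes that the rule had already sorted.

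The members were shallow. Their median was 1491 UMIs and 667 genes in library 1 and 1819 UMIs and 826 genes in library 2, against 13173 and 6771 UMIs in MS barcodes and 2017 and 4403 UMIs in SWEET13-positive BS barcodes. Their depth ran over 500 to 61373 UMIs in library 1 and 538 to 30155 in library 2. The summed members held 1140449 and 181446 UMIs, against 85275123 and 40329945 UMIs in MS barcodes. The 5 deepest members gave 24.1% of the members' UMIs in library 1 and 49.1% in library 2, so the sums lean on a few barcodes.

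Organelle transcripts were more frequent in BS barcodes, with or without SWEET13, than in MS barcodes. The median chloroplast share was 7.01% of UMIs in library 1 and 3.21% in library 2, against 2.25% and 1.23% in MS barcodes. The median mitochondrial share was 1.09% and 0.952% in members, against 0.181% and 0.188% in MS barcodes. The study kept barcodes with more than 1800 and fewer than 7000 genes, under 4% chloroplast and under 0.75% mitochondrial UMIs. Only 27 and 6 members passed these limits, and 132 and 32 had 1800 genes or fewer. The share of barcodes that passed was 15.3% and 14.6% of members, against 61.99% and 62.7% of MS barcodes and 26.1% and 41.4% of SWEET13-positive BS barcodes. The part of depth and organelle content in the differences below was not tested, beyond the alternatives given beside them.

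**Figure D1:**
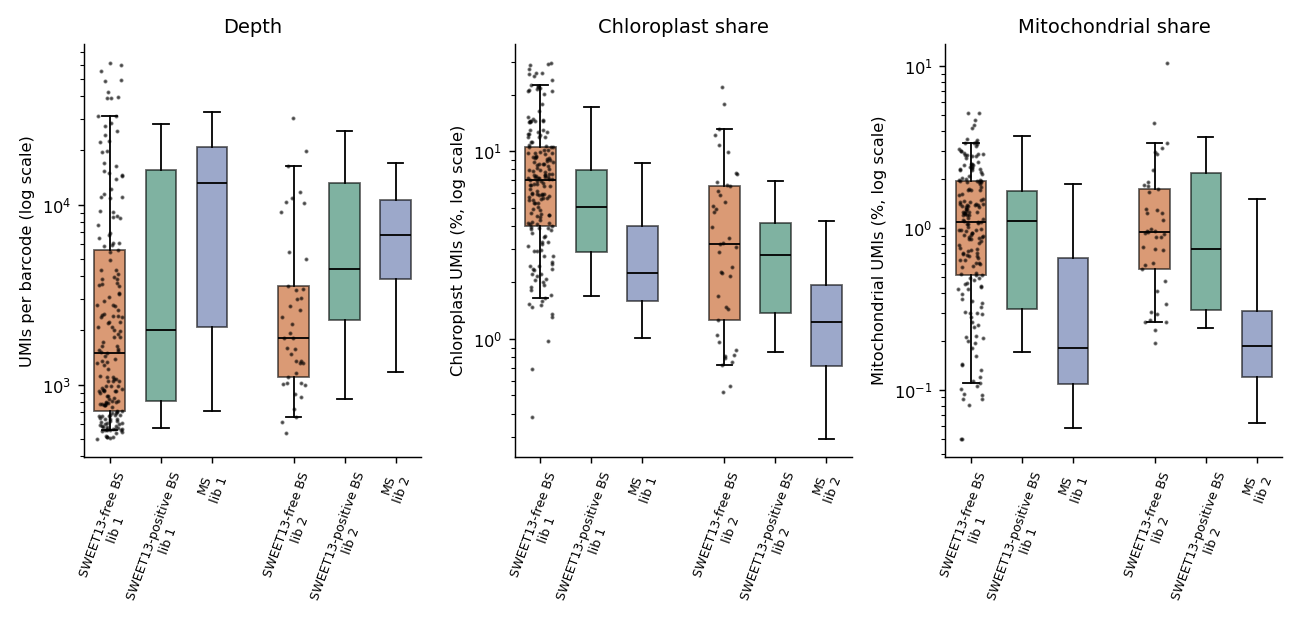
UMIs per barcode and the chloroplast and mitochondrial share of UMIs, on log axes, for SWEET13-free BS, SWEET13-positive BS and MS barcodes of each library (boxes are quartiles with the median, whiskers the 5th to 95th percentile, dots are single SWEET13-free barcodes, and shares under 0.05% are drawn at 0.05%). The SWEET13-free median lies at 1491 UMIs in library 1 and 1819 UMIs in library 2, below the MS medians of 13173 and 6771. The chloroplast and mitochondrial medians of SWEET13-free and of SWEET13-positive BS barcodes lie above those of MS.

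The members made up 60.2% of the 294 BS barcodes of library 1 (95% exact binomial interval 54.4% to 65.8%) and 48.8% of the 84 of library 2 (37.7% to 59.96%). Such intervals cover counting error only. Among barcodes of at least 10000 UMIs the share was 50% (31 of 62) in library 1 and 31.8% (7 of 22) in library 2. Among those of 1000 to 3000 UMIs it was 65.7% (44 of 67) and 76.9% (20 of 26), and among those under 1000 UMIs 61.3% (73 of 119) and 53.8% (7 of 13). From 3000 to 10000 UMIs it was 63.0% (29 of 46) and 30.4% (7 of 23), so the share did not follow depth steadily. Within the study's quality limits it was 49.1% (27 of 55, interval 35.4% to 62.9%) in library 1 and 24% (6 of 25, interval 9.36% to 45.1%) in library 2. The share within the limits was lower than that of all BS barcodes in each library, with intervals that overlap. With BS barcodes of at least 1000 UMIs thinned to 1000 UMIs it was 69.1% (121 of 175) and 66.2% (47 of 71). Before thinning 104 and 34 of these barcodes were SWEET13-free, since thinning also removes SWEET13 UMIs.

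How far 0 UMIs limits the SWEET13 level depends on depth. A count of 0 allows up to 3 counts, which is 2012 CPM at the median member of library 1 and 1649 CPM at that of library 2. SWEET13-positive barcodes had a median of 9574 CPM (quartiles 7020 and 16429) in library 1 and 5919 CPM (1633 and 13359) in library 2, a level set in part by the minimum of 3 UMIs. Over the 4 depth ranges, from shallow to deep, their median was 12280, 8812, 4213 and 8465 CPM in library 1 and 16627, 7404, 4386 and 1975 CPM in library 2. The limit lay below the median over all depths in all 177 and 41 members, and below the lower quartile in all 177 of library 1 but in 20 of 41 of library 2. In the 31 members of library 1 with at least 10000 UMIs no limit exceeded 275 CPM, and 24 of 26 SWEET13-positive barcodes of that depth were above it. In the 7 such members of library 2 no limit exceeded 294 CPM, and 9 of 12 SWEET13-positive barcodes were above it. A SWEET13 level as low as the lowest positive barcode (114 and 244 CPM) was below the limit of all but 13 and 3 members, so 0 UMIs do not exclude it in the others. In MS barcodes, where any SWEET13 UMIs give the background, the 3 genes summed to 2.58 and 4.02 CPM, and 2.83% and 2.67% of barcodes held at least 1 UMI.

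**Figure D2:**
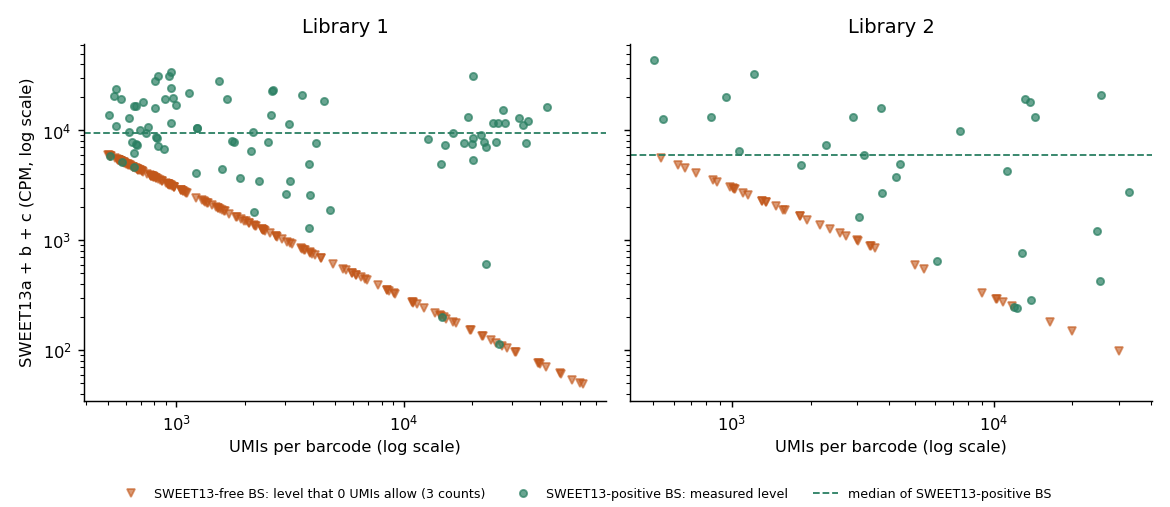
SWEET13a, SWEET13b and SWEET13c summed, in CPM of each barcode, against the UMIs of the barcode, on log axes, for library 1 (left) and library 2 (right). Triangles are the level that 0 UMIs allow in each SWEET13-free barcode (3 counts), circles the measured level in SWEET13-positive barcodes, and dashed lines their medians of 9574 and 5919 CPM, which lie above every triangle.

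Barcodes near the thresholds were counted on both sides. In library 1, 11 members had 10 to 12 BS UMIs, with a median depth of 645 UMIs, and 5 barcodes without SWEET13 fell short with 7 to 9. In library 2 there were 2 and 0. MS genes made up at least 40% of the marker UMIs in 3 and 1 members, and the median MS share was 5.88% and 3.12%. The 29 and 14 barcodes that missed membership by 1 or 2 SWEET13 UMIs had 164 and 252 CPM of CC3 and 1896 and 1803 CPM of MT1b. No member shared its barcode sequence with a member of the other library, and 11 barcode sequences of all occurred in both.

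The first comparison asked what separates BS barcodes with 0 SWEET13 UMIs from MS barcodes. Sums per library and class were tested by edgeR's quasi-likelihood test with the library as a term and Benjamini-Hochberg adjustment over all 16685 genes that passed a low-count filter. Of these, 1104 rose in members (6.62%) and 1461 fell (8.76%) at an adjusted p under 0.05. The median log2 fold change of all tested genes was -0.25, and changes are to be read against it. The fit had 4 sums and 1 residual degree of freedom, and the spread of the class difference between libraries was estimated across genes. The library term takes up the shift between the 2 pools, which also differ in growth time. The p-values therefore set the class difference only against a spread between these 2 pools that was shared across genes. A gene's own disagreement between the pools was given no weight of its own in this fit. Of the 2565 genes called, 2454 moved the same way in both libraries. When the same test was run on barcodes of 1800 genes or fewer in both classes, 501 genes were called. With barcodes of at least 1000 UMIs thinned to 1000 UMIs, 682 were called.

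Genes of the Calvin cycle rose the most. All 9 of the list rose, with a median log2 fold change of 7.60, and together they made up 22531 and 30483 CPM in members, against 177.7 and 171.7 CPM in MS barcodes. FBPA-1, a fructose-bisphosphate aldolase, had 11774 UMIs (10324 CPM) in the members of library 1 and 2802 UMIs (15443 CPM) in those of library 2, against 15.5 and 10.8 CPM in MS barcodes. It was found in 173 of 177 and in all 41 members, and its log2 fold change was 9.76 ± 0.48 (SE). PRK2, a phosphoribulokinase, which makes the acceptor of carbon dioxide, changed by 9.90 ± 0.59, and sedoheptulose-bisphosphatase (SHBP1) by 7.12 ± 0.42. The smallest rise of the list was that of transketolase TK1, at 1053 and 998 CPM in members against 49.9 and 60.3 CPM in MS barcodes. RBCL, a gene of the nuclear annotation described as the Rubisco large chain, stood at 1046 and 3362 CPM in members and 46.2 and 36.3 CPM in MS barcodes, but its reads cannot be told from those of near-identical copies.

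The 10 annotated genes with the largest rise and enough UMIs in both libraries included 5 of the Calvin cycle or photorespiration. CP12-1 (Zm00001d044925), a chloroplast protein that binds Calvin cycle enzymes, led with 769 and 1703 CPM in members against 0.868 and 0.694 CPM in MS barcodes. PRK2, a second phosphoribulokinase (Zm00001d017711) and FBPA-1 were among them. So was subunit H of the glycine cleavage system (Zm00001d023699), a mitochondrial enzyme of photorespiration, at 1969 and 2668 CPM in members and 3.49 and 2.11 CPM in MS barcodes. The others were an aquaporin of the NOD26-like family (Zm00001d037228), a gene annotated with a sulfate transporter domain (Zm00001d002038), the chloroplast protein RETICULATA-RELATED 4 (Zm00001d042050), MYB domain protein 69 (Zm00001d049079) and TUB8 (Zm00001d020910). Their log2 fold changes ranged from 9.38 to 10.31. TUB8 rested on few barcodes, since it had UMIs in 7 of 41 members of library 2 and 1 of them held 64.3% of its UMIs.

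Other metabolic lists were mostly but not uniformly higher in members. All 5 genes of starch breakdown rose (median log2 fold change 2.17), among them beta-amylase 3, with 195 and 347 CPM of Zm00001d047077 in members against 23.63 and 33.99 CPM in MS barcodes. Of 13 genes of the plastid NDH complex, which drives cyclic electron flow, 12 rose and 0 fell, and the sum of the list was 15089 and 21031 CPM in members against 2130 and 4862 CPM in MS barcodes. Of 7 photorespiration genes 5 rose and 1 fell. The 1 that fell was GLYK, the glycerate kinase of the last step, at 21.9 and 49.6 CPM in members and 504.3 and 655.9 CPM in MS barcodes. Of 9 genes of sulfate assimilation and glutathione synthesis 6 rose, including ATP sulfurylase 1 (Zm00001d013296), and 1 fell. Of the 4 glutamine synthetases, GLN3 rose by 6.52 ± 0.47 and GLN2 by 5.64 ± 0.47 on the log2 scale, GLN4 changed by -1.30 ± 0.39 and GLN1 by -0.08 ± 0.34, the last without passing the test (adjusted p = 0.931). Of 6 genes of triose phosphate export and sucrose synthesis, 0 rose and 3 fell (median -0.88).

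Photosystem genes divided. Of 26 genes of photosystem II, 16 fell and 1 rose, with a median log2 fold change of -1.65, and their sum was 19714 and 17030 CPM in members against 64202 and 62775 CPM in MS barcodes. Of 18 genes of photosystem I, 4 rose and 0 fell (median 0.51). Of 27 plastid ribosome genes 8 fell and 1 rose (median -0.98). Of 225 cytosolic ribosome genes 5 rose and 2 fell (median 0.18), with a median ratio of -1.14 in library 2, where the median of all genes was -1.17. There their sum was 8179 CPM in members against 12992 CPM in MS barcodes, while in library 1 it was 20782 against 15209 CPM. All shares of genes called are to be read against 6.62% rising and 8.76% falling of all genes tested.

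C4 genes of the mesophyll that the rule did not use fell. All 5 did so, with a median log2 fold change of -4.01. PDRP1, which regulates pyruvate orthophosphate dikinase, was at 141.2 and 71.6 CPM in members and 1636 and 1933 CPM in MS barcodes, 8.63% and 3.71% of the MS level. A single member held 76 of its 161 UMIs in library 1 and another 5 of its 13 in library 2. Carbonic anhydrase 3 (Zm00001d044096) was at 7.88% and 2.93% of its MS level, and the oxoglutarate/malate transporter (Zm00001d023929) at 7.84% in library 1, with 1 UMI in the members of library 2. These percentages lie near those of PEP1, CAH1 and MDH6, which were 11.4%, 6.85% and 7.03% in library 1 and 6.01%, 6.55% and 3.80% in library 2. PDK1, the dikinase itself, stood higher, at 35.2% and 35.97% of its MS level, and had UMIs in 170 of 177 and 40 of 41 members. MS transcripts were denser in the shallow members, where PEP1 was at 1512 and 942 CPM in members of 1800 genes or fewer, against 177 and 60.8 CPM in members within the quality limits. A single member within these limits in library 1, of 27211 UMIs, held 77 PEP1 UMIs, and the next highest held 12. That member had 242 MS and 322 BS marker UMIs. Another deep member of library 1, of 55326 UMIs and 7874 genes, held 60 PEP1 UMIs and belongs to neither group.

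Stress and wound genes, which can respond to protoplast release, did not rise as a group against MS barcodes. Of 47 such genes, 22 fell and 6 rose, with a median log2 fold change of -1.39. Both classes came from the same protoplasts, so a response common to both cannot be seen in this comparison. WRKY transcription factors made up most of the list, and the largest rise was that of a small heat shock protein (Zm00001d038608), at 44.7 and 143.3 CPM in members and 0.0938 and 0.198 CPM in MS barcodes. The 10 annotated genes with the largest fall were mostly genes with no UMI in members. Chitinase2 (Zm00001d036370) had 4 UMIs in 4 members of library 1 and 0 in library 2, against 307.3 and 302.7 CPM in MS barcodes. With 3 counts per library as the floor, its level in members of library 2 was at least 18.3-fold lower. The Core-2/I-branching glucosaminyltransferase gene Zm00001d053393 had 0 UMIs in members and lay at least 10.3-fold lower there in library 1, while in library 2 its MS level lay under the floor. For tonoplast intrinsic protein 1 (Zm00001d011778), a vacuolar aquaporin, the bound was 8.33-fold in library 1, for a MYB-domain gene (Zm00001d046981) 5.97-fold, and for a Sas10/Utp3/C1D gene (Zm00001d046836) 5.14-fold. For a pectinesterase (Zm00001d032100) the bounds were 2.88-fold and 2.54-fold in the 2 libraries. A cytosolic glyceraldehyde-phosphate dehydrogenase (Zm00001d051001) and a berberine family gene (Zm00001d046318) had bounds of 3.06 and 2.95 in library 1 only. The last of the 10 were a hydrolase (Zm00001d042346) and a secretory protein (Zm00001d032618), each with 1 UMI in all members.

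**Figure D3:**
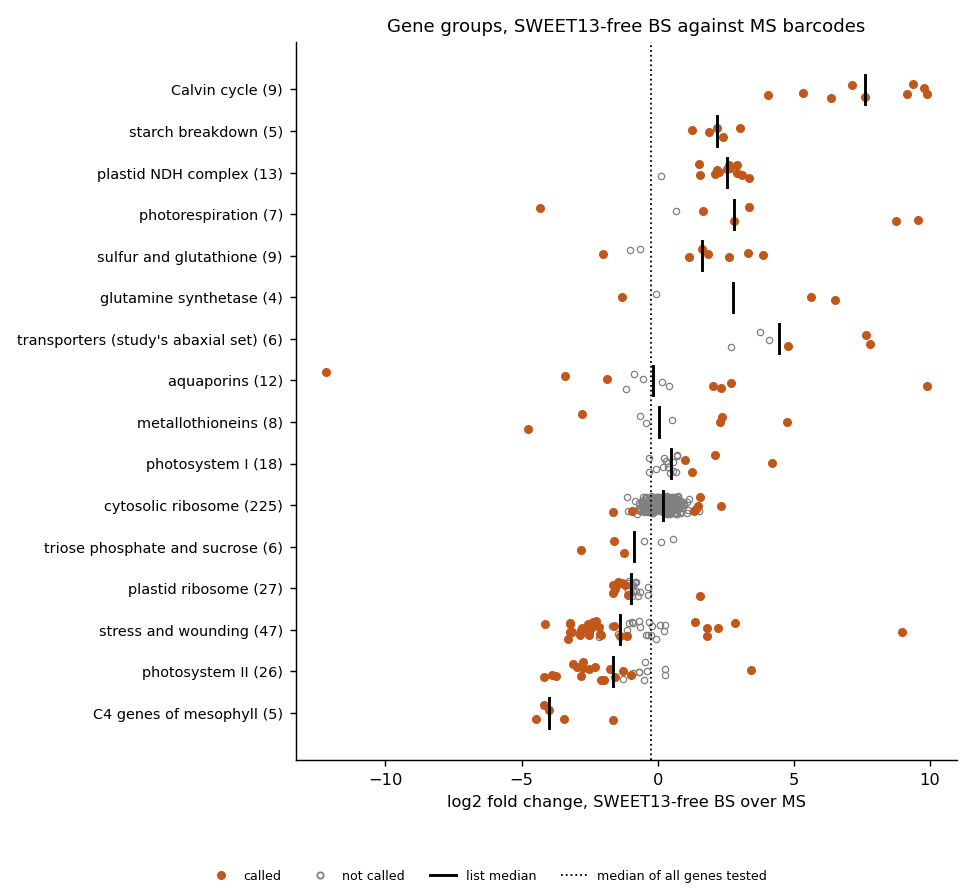
log2 fold change of SWEET13-free BS over MS barcodes for the genes of 16 lists, with the number of genes tested (filled points passed the edgeR test, open points did not, bars are list medians, and the dotted line is the median of all genes tested). Calvin cycle genes lie highest, with a median of 7.60, and mesophyll C4 genes lowest, with a median of -4.01, while the lists of metallothioneins and aquaporins spread to both sides.

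CC3 and MT1b were both higher in the members than in MS barcodes. Both had been picked as adaxial BS genes in cells of the first library, which is therefore not independent evidence of their direction. CC3 had 368 UMIs (322.7 CPM) in the members of library 1 and 55 UMIs (303.1 CPM) in those of library 2, against 54.7 and 52.7 CPM in MS barcodes. The ratio was 5.90-fold and 5.75-fold, and the log2 fold change 2.39 ± 0.38 (adjusted p = 1.15e-08, edgeR). MT1b had 3445 UMIs (3021 CPM) and 300 UMIs (1653 CPM) in members, against 385.0 and 405.6 CPM in MS barcodes. The ratio was 7.85-fold in library 1 and 4.08-fold in library 2, and the log2 fold change 2.35 ± 0.35 (adjusted p = 7.29e-10). No single barcode carried either result, since the largest contribution was 10.9% of CC3 and 9.23% of MT1b UMIs in library 1 and 23.64% and 26% in library 2.

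In library 1 both genes were higher in deeper members. In members of library 1 with at least 10000 UMIs, CC3 was at 365 CPM and MT1b at 3643 CPM, against 54.97 and 387 CPM in MS barcodes of that depth. In members with 500 to 1000 UMIs they were at 97.6 CPM (5 UMIs) and 644 CPM (33 UMIs), against 38.2 and 322 CPM. In library 2 CC3 went with depth and MT1b did not. Members there with at least 10000 UMIs had 392 CPM of CC3 and 1997 CPM of MT1b, against 46.1 and 336 CPM in MS barcodes. Those with 3000 to 10000 UMIs had 183 CPM (6 UMIs) and 518 CPM (17 UMIs), against 59.9 and 480 CPM. MT1b in MS barcodes stayed between 275 and 491 CPM over all 4 depth ranges of both libraries. Among barcodes of 1800 genes or fewer, the log2 fold change was 1.64 ± 0.59 for CC3 (adjusted p = 0.0891) and 1.17 ± 0.55 for MT1b (adjusted p = 0.283), so neither passed the test there. Within the study's limits it was 2.79 ± 0.51 for CC3 and 2.73 ± 0.47 for MT1b, and both passed.

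The deep members differed among themselves in amount rather than presence of MT1b. All 46 members of library 1 and all 10 of library 2 with at least 5000 UMIs held MT1b UMIs. Their MT1b level ran over 488 to 10663 CPM around a median of 2174 CPM in library 1 and over 332 to 7643 CPM around 942 CPM in library 2. The medians of MS barcodes of that depth were 174 and 180 CPM, although the highest of them reached 10440 and 18468 CPM. Presence was not particular to members, since 25 of 26 and 13 of 14 SWEET13-positive barcodes of that depth held MT1b UMIs. So did 81.4% and 73.2% of the MS barcodes. CC3 was absent from 8 of the 46 and 1 of the 10, and its median was 306 and 190 CPM in members, against 0 in MS barcodes of both libraries.

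Detection was compared at equal depth. With each barcode thinned to 1000 UMIs, MT1b was found in 56.7% of 104 members of library 1 and 64.7% of 34 members of library 2, against 23.8% and 25.0% of MS barcodes. CC3 was found in 21.2% and 17.6% of members, against 4.30% and 4.77% of MS barcodes. Thinning left out 73 and 7 members that were shallower. Without thinning MT1b was found in 61.6% and 70.7% of members and in 62.8% and 63.1% of the deeper MS barcodes. In the thinned sums MT1b changed by 1.86 ± 0.47 on the log2 scale (adjusted p = 0.00275) and CC3 by 1.22 ± 0.60 (adjusted p = 0.305).

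**Figure D4:**
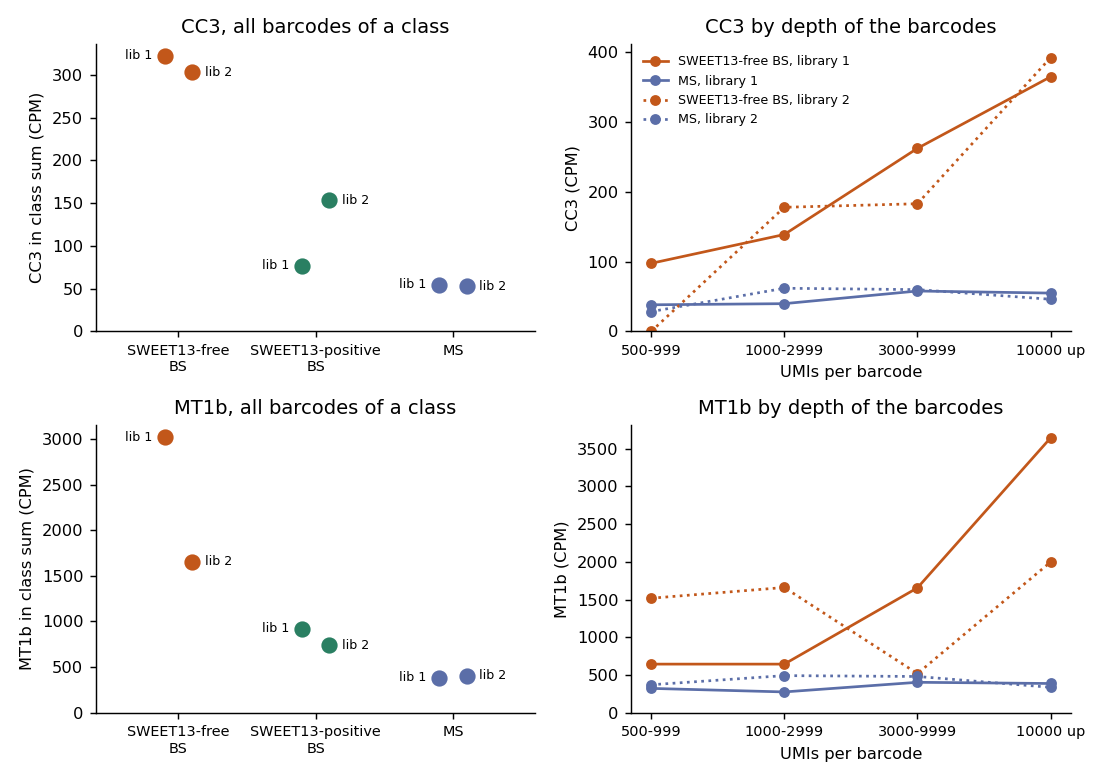
CC3 (top) and MT1b (bottom) in CPM. Left, the summed class of each library (SWEET13-free BS, SWEET13-positive BS and MS), and right, SWEET13-free BS and MS barcodes in 4 ranges of UMIs per barcode (solid, library 1, and dotted, library 2). The summed SWEET13-free class is above both other classes shown in each library, and in its deepest range MT1b is at 3643 and 1997 CPM, while MT1b in MS barcodes stays between 275 and 491 CPM in every range.

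MT1b was not typical of its family. Of 8 metallothionein genes 3 rose and 2 fell against MS barcodes. A type 2C gene (Zm00001d035659) rose further than MT1b, at 1278 and 1731 CPM in members and 22.9 and 109.5 CPM in MS barcodes, and a type 1 gene (Zm00001d029546) had 3 and 0 UMIs in members against 59.2 and 45.03 CPM in MS barcodes. Of the 3 cystatins CC3 and cystatin 4 (Zm00001d008268) rose, and cystatin 7 (Zm00001d029628) did not pass the test. Of the study's other 3 adaxial genes, harpin binding protein 1 (Zm00001d007581) fell, at 594 and 739 CPM in members and 1173 and 1343 CPM in MS barcodes, while TIFY 10B (Zm00001d005813) and a glycine-rich domain protein (Zm00001d048802) did not pass the test.

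Of the markers of vascular cells, SUT1 was sparse and a phloem lectin was not above its level in MS barcodes. SUT1, the sucrose importer of companion cells, had 17 UMIs in 9 members of library 1 and 0 in library 2, against 0.657 and 0.0496 CPM in MS barcodes. Its rise passed the test with UMIs in library 1 alone. The lectin described as phloem-specific (Zm00001d024621) was at 55.2 and 77.2 CPM in members and 58.1 and 161.1 CPM in MS barcodes, and did not pass. The 5 nicotianamine synthases NAS1, NAS2, NAS3, NAS9 and NAS10 had 0 UMIs in all 218 members, but none exceeded 3.05 CPM in MS barcodes either, near the floor of the summed members (2.63 CPM in library 1 and 16.5 CPM in library 2).

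The second comparison asked how members differ from BS barcodes with SWEET13. Some of the latter held few BS transcripts. Among those with at least 10000 UMIs, the poorest in the BS genes of the rule held 72 of 20113 UMIs in library 1. The poorest in library 2 held 12 of 13747. These barcodes had 629 and 252 SWEET13 UMIs, and their part in the differences was not tested. Of 5136 genes tested by the same edgeR test, 3 rose in members (0.0584%) and 11 fell (0.214%). The median log2 fold change of all tested genes was 0.01. The count varied with the processing, being 10 with DESeq2, 4 without the deepest member of each library and 0 without the library term, where 113 genes had an unadjusted p under 0.05. The photosynthetic lists gave 0 calls, with medians of 0.07 for the Calvin cycle, 0.03 for the NDH complex and 0.02 for photosystem I. FBPA-1 stood at 10324 and 15443 CPM in members and 11228 and 13794 CPM in SWEET13-positive barcodes, a difference of 0.04 ± 0.14 on the log2 scale.

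MT1b was the 1 annotated gene among the 3 that rose. It stood at 3021 and 1653 CPM in members, against 920 and 741 CPM in SWEET13-positive barcodes, 3.28-fold and 2.23-fold higher, with a log2 fold change of 1.48 ± 0.19 (adjusted p = 0.0410). The call was lost without the deepest member (adjusted p = 0.0552), within the study's quality limits (0.108) and among barcodes of 1800 genes or fewer (0.385), while the log2 fold change lay between 1.49 and 1.75 in these, and over all settings the adjusted p ran from 4.78e-11 (no low-count filter) to 0.9999 (no library term). Barcodes with 1 or 2 SWEET13 UMIs, in neither class, had 1896 and 1803 CPM of MT1b, in library 2 above the 1653 CPM of members. CC3 was at 322.7 and 303.1 CPM in members and 76.8 and 153.5 CPM in SWEET13-positive barcodes, 4.20-fold and 1.97-fold higher, without passing the test (1.61 ± 0.32, adjusted p = 0.166). It passed with another normalization (RLE, 0.0130), with at least 20 marker UMIs (0.0420), with purer barcodes (2.21e-05) and with no low-count filter (6.48e-05). All 5 of the study's adaxial genes were above 0 in both libraries, with a median of 1.00, though 4 did not pass. These 5, with MT1b and CC3 among them, were found in cells of library 1, so only library 2 is apart from that choice. The other 2 genes that rose, Zm00001d029099 and Zm00001d007827, fell outside the naming rule and were picked after their values were seen. They rested on single barcodes, since 1 member held all 1049 UMIs of the first in library 1 and another all 24 in library 2, and 1 member held all 75 UMIs of the second in library 1 and another 81.8% of its 11 in library 2.

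Genes of the study's abaxial set were lower in the members than in SWEET13-positive barcodes for 8 genes, and 26 others did not pass the test. Of its 36 genes 34 were tested, 0 rose and 8 fell (23.5%, against 0.214% of all genes tested), with a median log2 fold change of -1.23. All 34 were below 0 in library 1 and 28 in library 2. Against MS barcodes, 16 of the 33 genes tested rose in members and 1 fell, with a median of 1.85. This set was found with SWEET13 in cells of library 1, so only library 2 is apart from that choice. The deepest drop was in UmamiT21a, of a family that exports amino acids, with 2 UMIs in members of library 1 and 1 in those of library 2, against 270 UMIs (377.1 CPM) and 60 UMIs (230.2 CPM) in SWEET13-positive barcodes (-7.07 ± 0.51, adjusted p = 0.00216). The gene described as Os02g0519800 protein (Zm00001d016625), whose role is not given, was at 46.5 and 11.02 CPM in members and 4358 and 894 CPM in SWEET13-positive barcodes (-6.49 ± 0.25, adjusted p = 5.99e-05).

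Of the other transporters 2 fell, AHA3 and AAP45, and both kept UMIs in members. AHA3, a plasma membrane proton ATPase that powers uptake, was at 92.9 and 77.2 CPM in members and 458.1 and 295.5 CPM in SWEET13-positive barcodes (-2.15 ± 0.26, adjusted p = 0.0325). It had UMIs in 49 of 177 and 10 of 41 members, and was still above its 2.08 and 4.36 CPM in MS barcodes. The amino acid permease AAP45 was at 70.1 and 5.51 CPM in members, with 1 UMI in library 2, and 379.9 and 57.6 CPM in SWEET13-positive barcodes (-2.49 ± 0.33, adjusted p = 0.0410). AAP56, a second permease, was at 235.0 and 33.1 CPM in members and 779.3 and 755.9 CPM in SWEET13-positive barcodes, without passing the test (adjusted p = 0.166). The sugar symporter STP3 had 1 and 4 UMIs in members against 42 and 15 in SWEET13-positive barcodes, and NRT1 had 1 and 2 UMIs against 41 and 15. Neither passed the test. UmamiT20a, of the same family as UmamiT21a, was at 139.4 and 77.2 CPM in members and 343.6 and 280.1 CPM in SWEET13-positive barcodes (adjusted p = 0.141).

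Of 4 transcription factors that the study's text discussed, 3 were tested and 0 passed, while DOF3 was removed by the low-count filter. A PLATZ factor of the abaxial set (Zm00001d002489) did not pass the edgeR test either (adjusted p = 0.873). Its log2 ratio to SWEET13-positive barcodes was -0.89 in library 1 and 0.60 in library 2. DOF3 had 0 UMIs in members, against 39 UMIs (54.5 CPM) and 3 UMIs in SWEET13-positive barcodes, which makes it at least 20.7-fold lower in the members of library 1. In library 2 the level of 11.5 CPM lay under the floor of 16.5 CPM. KAN1, a factor of abaxial identity in leaves, had 4 and 0 UMIs in members against 30 and 8 UMIs in SWEET13-positive barcodes (adjusted p = 0.150). Neither bZIP4 (46.5 and 27.6 CPM in members, 75.4 and 69.1 CPM in SWEET13-positive barcodes) nor MYB25 (103.5 and 33.1 CPM in members, 252.8 and 49.9 CPM in SWEET13-positive barcodes) passed it. The remaining called falls were a phosphoglycerate mutase-like gene (Zm00001d033551), ustilago maydis induced 12 (Zm00001d033980), a ubiquitin domain gene (Zm00001d038753) and a BRO1-like gene (Zm00001d000299) of the abaxial set, and, outside it, senescence associated gene 20 (Zm00001d038029), beta glucosidase aggregating factor 1 (Zm00001d019312) and dehydrin 13 (Zm00001d033483). The log2 fold changes of these 7 ran over -5.43 to -2.14. Within the study's quality limits 2 genes were called, and among barcodes of 1800 genes or fewer 3 were called, 0 of them higher in members in either setting.

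**Figure D5:**
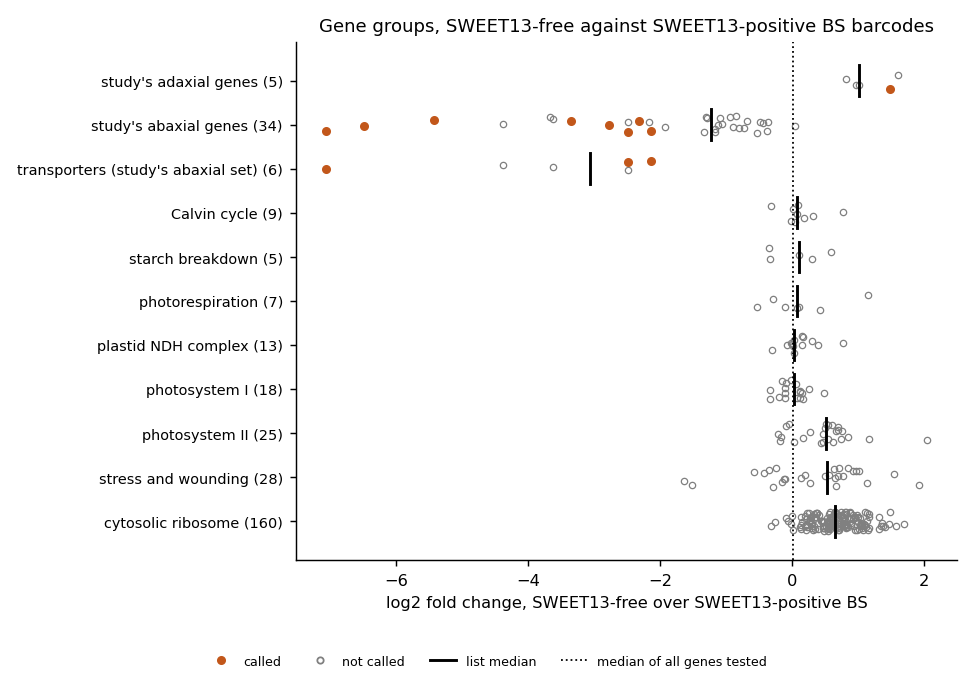
log2 fold change of SWEET13-free over SWEET13-positive BS barcodes for the genes of 11 lists (filled points passed the edgeR test, open points did not, bars are list medians, and the dotted line is the median of all genes tested). The abaxial set has a median of -1.23 with 8 genes called, the adaxial genes a median of 1.00 with 1 called, and the medians of the Calvin cycle, NDH complex and photosystem I lie within 0.1 of 0.

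The lists of photosystem II and the cytosolic ribosome had fitted medians above 0 with 0 genes called. Of 160 cytosolic ribosome genes 0 were called, with a median of 0.65, but the median ratio was 0.83 in library 1 and -0.04 in library 2, where 81 were below 0. Of 25 photosystem II genes 0 were called, with a median of 0.52. Of the MS genes of the rule, PEP1 was at 447.2 and 347.2 CPM in members and 284.9 and 99.8 CPM in SWEET13-positive barcodes. Its part in the medians was not tested.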

How the data were processed

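The authors deposited UMI counts per gene and barcode for 2 libraries, made with Cell Ranger 3.1.0 (STAR) against version 4 of the B73 reference genome with gene models from Ensembl, as matrices of the barcodes called as cells. The submitters' notes also name Seurat 3.1. Only reads placed at 1 gene were counted, so near-identical copies (RBCS1 and RBCS2, SWEET13a, SWEET13b and SWEET13c) can lose or split UMIs. The libraries held 88081896 and 41924567 UMIs. Of 46430 features, 157 were chloroplast and 208 mitochondrial.

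Barcodes were classed by 10 genes, which were left out of the tests, and UMIs were summed per library and class. Doublets were not called. The sums were tested with edgeR 4.0.16 (quasi-likelihood, TMM, filterByExpr, library as a term, Benjamini-Hochberg threshold 0.05) in R 4.3.3. SE is the log2 fold change divided by the root of F. DESeq2 1.42.0 was an alternative. The code was tested on simulated data. Named genes were those of the lists with a symbol in the study, and, among annotated called genes that moved the same way in both libraries, the 10 largest rises and falls against MS (at least 20 UMIs in the higher class of each library) and 5 of each against SWEET13-positive barcodes (at least 10 UMIs). The gene lists came from the study's annotation. Members and lists were chosen with earlier results of these data known.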

Additional observations from a re-analysis of the deposited data

How the results depend on the processing

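Against MS barcodes, 2565 genes were called. The count was 1415 with DESeq2, where 4206 adjusted p were not given, 1534 within the study's quality limits, 682 after thinning to 1000 UMIs and 501 among barcodes of 1800 genes or fewer. The other settings gave 1732 to 2764 calls. Against SWEET13-positive barcodes the 14 calls became 60 with RLE normalization, 114 with no low-count filter, 79 with purer barcodes, 26 with at least 20 marker UMIs, 2 within the quality limits, 3 among barcodes of 1800 genes or fewer, 4 without the deepest member and 0 without the library term. The settings of 1800 genes or fewer and without the deepest member were chosen after seeing the data. The cause of these changes was not tested. The SWEET13-free share was 49.1% in library 1 and 24% in library 2 within the quality limits, 69.1% and 66.2% after thinning to 1000 UMIs, and 31.25% in library 2 at 5000 UMIs or more.

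Leaving out either library left CC3 ratios of 2.24 to 2.52 and MT1b ratios of 1.74 to 2.93 on the log2 scale against MS, and 0.98 to 2.05 and 1.17 to 1.74 against SWEET13-positive barcodes, with no test. Counts of calls were not run on 1 library, which leaves no residual degrees of freedom. The library term pairs the classes by library, and without it 1732 genes were called against MS and 0 against SWEET13-positive barcodes.

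Of 87 named genes against MS, 837 values under the alternatives kept direction and side of the threshold, 86 lost the call, 4 gained it and 8 changed sign. Of 38 against SWEET13-positive barcodes the counts were 296, 43, 30 and 11. The changes of sign were in log2 fold changes as follows. Against MS, MYB25 was at -0.49 among barcodes of 1800 genes or fewer. bZIP4 was at -0.019 with DESeq2, -0.0067 with purer barcodes, -0.0048 without the library term, -0.064 with no low-count filter and -0.13 without the deepest member. GLN1 was at 0.0025 with purer barcodes and 0.14 within the quality limits. Against SWEET13-positive barcodes, GLN4 was at 0.053 without the deepest member. FBPA-1 was at -0.078 among barcodes of 1800 genes or fewer and -0.065 without the deepest member. SHBP1 was at -0.0098 with at least 20 marker UMIs, -0.010 without the library term, -0.014 with no low-count filter and -0.062 without the deepest member. TK1 was at -0.79 among barcodes of 1800 genes or fewer and -0.18 after thinning, RCA2 at -0.31 among barcodes of 1800 genes or fewer, and FBPA-2 at 0.066 after thinning.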
